A study of Mus musculus with 4 samples.

Results

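Noncoding RNA promoter regions are stretches of the mouse genome where phosphorylated CREB was called close to the annotated start of a noncoding RNA gene and away from every protein-coding start. They were taken from peak lists of MC3T3-E1, a pre-osteoblast line, after 1 h of 100 nM forskolin, a plant compound that turns on adenylyl cyclase and thereby increases cAMP, or after 1 h of the DMSO vehicle. Each treatment had 2 chromatin immunoprecipitation libraries, given as biological replicates, made with an antibody to CREB phosphorylated at serine 133. The 4 peak lists were merged where peaks shared at least 1 bp, which gave 28335 regions in build mm9. Of these, 413 had their centre within 1 kb of the 5′ end of a transcript of a lincRNA, antisense, processed transcript, miRNA, snoRNA or snRNA gene and more than 1 kb from every 5′ end of a protein-coding gene. Each is named here by its nearest noncoding gene. For comparison, 10151 regions lay within 1 kb of a protein-coding 5′ end and are called protein-coding promoter regions, and 17771 lay elsewhere.

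CREB is a basic leucine zipper factor that binds the palindromic cAMP response element (CRE) and its shorter core. Protein kinase A, switched on by cAMP, phosphorylates it at serine 133, which lets the coactivators CBP and p300 bind. Many long noncoding RNAs are made by RNA polymerase II from promoters like those of coding genes, and some carry miRNAs or snoRNAs in their introns. The annotated 5′ end of a miRNA or of an intronic snoRNA is where the processed RNA or its hairpin begins, and the promoter of the primary transcript can lie far away.

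The sequences below carry the CREs to which the results refer. Each is centred on its region in mm9, is given 5′ to 3′ on the strand of the noncoding gene, and has the full CRE (TGACGTCA) in capitals, except at Malat1, where capitals mark the CRE core (TGACG, or CGTCA for the other strand). Mir212 is shown because it holds 2 full CREs, and 4930471M09Rik, Gm14321 and Pvt1 because they ranked high in all 4 libraries. Gm17439 ranked higher with forskolin, E530001K10Rik and AC090489.1 were called in the forskolin libraries alone, and Malat1 in the vehicle libraries alone.
Mir212, chr11:74986768-74986888, plus strand: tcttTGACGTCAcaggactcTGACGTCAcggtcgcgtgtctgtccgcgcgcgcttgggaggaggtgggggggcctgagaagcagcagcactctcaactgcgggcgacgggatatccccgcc
4930471M09Rik, chr6:91390889-91390989, minus strand: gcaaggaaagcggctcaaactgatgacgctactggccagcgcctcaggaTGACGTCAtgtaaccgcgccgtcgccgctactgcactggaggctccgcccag
Gm14321, chr2:167602906-167603006, plus strand: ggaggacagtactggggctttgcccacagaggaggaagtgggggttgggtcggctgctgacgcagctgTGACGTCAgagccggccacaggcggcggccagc
Pvt1, chr15:61869504-61869604, plus strand: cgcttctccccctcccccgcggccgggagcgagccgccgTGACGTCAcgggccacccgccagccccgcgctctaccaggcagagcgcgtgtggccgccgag
Gm17439, chr16:21846102-21846202, minus strand: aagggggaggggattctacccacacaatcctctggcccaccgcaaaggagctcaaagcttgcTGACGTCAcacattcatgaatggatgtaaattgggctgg
E530001K10Rik, chr2:94105513-94105613, minus strand: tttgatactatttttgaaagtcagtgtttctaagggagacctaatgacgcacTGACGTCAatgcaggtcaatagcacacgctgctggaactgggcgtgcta
AC090489.1, chr10:127815612-127815732, minus strand: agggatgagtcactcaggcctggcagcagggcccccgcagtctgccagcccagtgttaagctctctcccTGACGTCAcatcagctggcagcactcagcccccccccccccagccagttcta
Malat1, chr19:5802606-5802830, minus strand: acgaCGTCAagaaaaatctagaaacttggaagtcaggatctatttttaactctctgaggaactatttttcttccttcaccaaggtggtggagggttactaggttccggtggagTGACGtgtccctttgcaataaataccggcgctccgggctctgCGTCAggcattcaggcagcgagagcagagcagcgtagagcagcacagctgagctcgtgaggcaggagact

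Each list gives 1 deposited score per peak on a scale that is not stated. A score is therefore read as its percentile within its own list, where the highest score stands at 100 and the middle one near 50. The forskolin lists held 25566 and 19371 peaks in replicates 1 and 2, against 14686 and 10180 in the vehicle lists. Read totals are not part of the lists, so depth is not known directly. Low scores came in even steps of 0.239 and 0.688 in forskolin replicates 1 and 2, against 0.232 and 0.224 in vehicle replicates 1 and 2. If a step stands for 1 sequenced tag, forskolin replicate 2 had 0.347 of the depth of forskolin replicate 1. All 10 osteoblast marker genes had a region of any kind within 10 kb of a 5′ end. So had 2 of 5 adipocyte, 4 of 5 chondrocyte, 1 of 5 muscle and 2 of 5 haematopoietic or osteoclast genes. The share of all genes with such a region is not given here, so these counts alone do not identify the cell type. Occupancy near a gene is not a measure of its expression.

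The 413 regions had 387 different nearest genes on 20 chromosomes. A long noncoding gene was nearest for 310 regions, at an antisense transcript in 70 of them, and a small RNA gene for 103, made up of 42 at snRNA, 36 at miRNA and 25 at snoRNA genes. LincRNA genes had such a region most often. Among genes that start more than 1 kb from any protein-coding 5′ end, 148 of 727 lincRNA genes (20.4%) had one, as had 143 of 2127 processed transcript genes (6.72%). Small RNA genes had one less often by count, with 39 of 1386 snRNA genes (2.81%), 35 of 1433 miRNA genes (2.44%) and 32 of 1447 snoRNA genes (2.21%). No test was made between these classes of gene.

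The regions sat closer to the starts of long than of small RNA genes. The region itself covered the annotated 5′ end in 169 of 413 cases (40.9%). By kind, it did so in 36 of 70 antisense, 116 of 240 other long, 7 of 42 snRNA, 5 of 36 miRNA and 5 of 25 snoRNA cases. The median distance from the centre to the 5′ end was 177 bp at antisense and 184 bp at other long genes, while it was 395 bp at snRNA, 420 bp at snoRNA and 586.5 bp at miRNA genes. For small RNAs the word promoter thus describes the rule more than the position, and 33 of the 103 lay inside a longer gene of the same strand. Centres were upstream of the 5′ end in 240 regions and downstream in 173. Protein-coding 5′ ends were a median of 18073 bp away, and 271 regions were more than 10 kb from any. The centre lay outside protein-coding genes in 280 regions, in an intron of one in 117 and in an exon in 16.

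**Figure D1:**
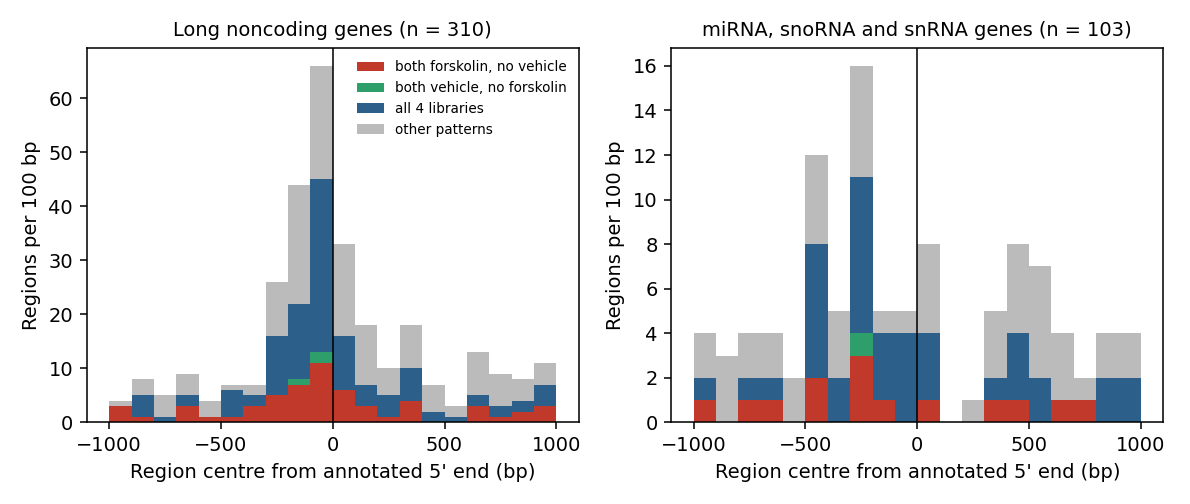
Number of regions per 100 bp (vertical) by distance of the region centre from the annotated 5′ end in bp (horizontal, negative is upstream), at long noncoding genes (left, n = 310) and small RNA genes (right, n = 103), with bars split by the libraries that had a peak. Regions at long genes gather around the 5′ end, and those at small RNA genes are spread over the whole window.

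By lowest percentile over the libraries, the highest-ranked noncoding RNA promoter region was at AC113316.1 (chr5:147072463-147072773). This annotated miRNA lies inside an intron of Cdk8, which encodes a kinase of the Mediator complex. Deposited scores of the region were 480.7 and 269.9 in the forskolin libraries, against 556.6 and 222.9 in the vehicle libraries, and it held no CRE core. No further copy of it was found in the reference. Copies that the reference lacks could not be counted, and their part in these scores was not tested. Next came 4930471M09Rik, a lincRNA gene 29582 bp from the nearest protein-coding start, that of Wnt7a (chr6:91390781-91391097, intergenic). Its scores were 373.3 and 274 with forskolin, against 208.8 and 152.9 with vehicle. It stood among the highest-scoring peaks of every list, with a lowest percentile of 99.95. Its full CRE, printed above, was centred near the middle of the region and 88 bp upstream of the 5′ end.

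Gm14321, a processed transcript gene, and Gm11974, a lincRNA gene, each with a full CRE close to the 5′ end, also ranked at the top under both treatments. At Gm14321 (chr2:167602792-167603121) the percentiles were 99.6 and 99.1 with forskolin, against 99.3 and 98.1 with vehicle. At Gm11974 (chr11:6428621-6428973) they were 98.8 and 98.6 with forskolin, against 98.3 and 97.9 with vehicle. The noncoding gene annotated as Trmt61b (chr17:71947959-71948283) had scores of 167.3 and 138.4 with forskolin, against 90.3 and 66.4 with vehicle. In percentiles these were 99.2 and 99.4 with forskolin, against 99.1 and 98.7 with vehicle, so the ranks differed little. Its region held 3 CRE cores without a full CRE. SNORD60, a box C/D snoRNA of the type that guides methylation of ribosomal RNA, had a region in an intron (chr17:24664816-24665172). There the percentiles were 96.2 and 96.3 with forskolin, against 96.0 and 90.8 with vehicle.

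Mir212 and Mir132 are neighbouring miRNA genes, known as CREB targets from work in neurons, and lie inside the noncoding gene 1700016P03Rik. The region at the Mir212 hairpin (chr11:74986647-74987010, centre 62 bp upstream) was the 1 noncoding RNA promoter region with 2 full CREs within 100 bp of its centre. They stood 115 and 99 bp before the annotated 5′ end. Its scores were 114.8 and 81.9 in the forskolin libraries, against 40.8 and 33.2 in the vehicle libraries. In percentiles these were 97.7 and 97.1 with forskolin, against 93.9 and 92.3 with vehicle. Both forskolin libraries were thus above both vehicle libraries, although the region was called in all 4. A second region 827 bp away, at the 5′ end of 1700016P03Rik itself (chr11:74985846-74986156), was called in forskolin replicate 1 alone, at percentile 96.1, and held 2 CRE cores. The mature 3p miRNAs of Mir212 and Mir132 share their seed, bases 2 to 8, which is in capitals in these RefSeq sequences (GRCm38.p6).
mmu-miR-212-3p: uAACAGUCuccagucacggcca
mmu-miR-132-3p: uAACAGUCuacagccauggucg

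Pvt1, a long noncoding RNA gene next to Myc, was occupied alike by rank under both treatments. Its region (chr15:61869390-61869718) covered the 5′ end, and the full CRE printed above was centred 4 bp inside the transcript. The percentiles were 95.7 and 94.5 with forskolin, against 94.8 and 93.0 with vehicle, and the groups overlapped.

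Malat1, the abundant RNA of nuclear speckles, was called with vehicle alone. Its region (chr19:5802562-5802874, intergenic) covered the 5′ end with its centre 47 bp upstream. Neither forskolin library had a peak there, against scores of 46.4 and 28.9 in vehicle replicates 1 and 2, at percentiles 95.3 and 89.98. The nearest forskolin peaks were 9522 and 9541 bp away. Malat1 was still vehicle-only when peaks within 500 bp were joined, with the top 50% of each list, and with equal numbers of top peaks. The printed stretch holds its 3 CRE cores.

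Neat1, the scaffold RNA of paraspeckles and a neighbour of Malat1, was called in vehicle replicate 2 alone, at percentile 91.8 (chr19:5845510-5845812, centre 183 bp upstream). A region 2805 bp away, at the antisense gene Gm9783, was called in forskolin replicate 1 alone, at percentile 98.0. Each of these single-library calls stood high in its own list, and neither has a second library behind it.

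The other 3 vehicle-only regions had forskolin peaks close by. At 1600020E01Rik, a lincRNA gene next to Pcbp1 (chr6:86477086-86477451), the vehicle percentiles were 96.0 and 83.8, and the nearest forskolin peaks were 339 and 882 bp away. At the lincRNA gene 4833417C18Rik, a forskolin-only region (chr11:95719583-95719893) lay 402 bp from a vehicle-only one (chr11:95719989-95720291). The percentiles were 92.1 and 87.9 in the forskolin libraries at the first, and 78.6 and 61.5 in the vehicle libraries at the second. At AL596324.1, an annotated miRNA in an intron of Bcas3, the vehicle percentiles were 57.3 and 34.5, and the nearest forskolin peaks were 917 and 766 bp away. All 3 became regions of all 4 libraries once peaks within 500 bp were joined, and so did the forskolin-only region of 4833417C18Rik.

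Well-known long noncoding RNAs were occupied in part. The list held 44 symbols, of which 18 were found in the annotation. Of these 18 genes, 10 had a region within 1 kb. At 9 genes it was a noncoding RNA promoter region, since that of Tug1 was also within 1 kb of a protein-coding start. Among all genes that start more than 1 kb from a protein-coding start, 20.4% of lincRNA and 6.72% of processed transcript genes had one. Regions of all 4 libraries lay at Pvt1, Tug1, Mir17hg and 1700020I14Rik, forskolin-only regions at 0 of the 18, and a vehicle-only one at Malat1. Over all regions, 31.5% were called in all 4 libraries, 18.3% were forskolin-only and 0.441% vehicle-only. Meg3, Rian, Mirg, H19, Xist, Tsix, Miat and Hoxa11as had no region. At 1700020I14Rik, which RefSeq names Oip5os1 (chr2:119419837-119420213), the percentiles were 83.9 and 62.4 with forskolin, against 82.8 and 62.6 with vehicle. Mir17hg, the host of the miR-17 cluster, ranked low, at 16.7 and 47.5 with forskolin, against 19.3 and 3.52 with vehicle. In neither of these did the treatments part.

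Regions at other known long noncoding RNAs missed 1 or more libraries. Dnm3os, an antisense RNA that carries Mir199a-2 and is needed for skeletal growth in mice (chr1:164147493-164147970), had percentiles of 67.6 and 86.8 with forskolin, against 64.7 in vehicle replicate 2 and no peak in vehicle replicate 1. Airn, the imprinted RNA that overlaps Igf2r and silences it on the paternal chromosome, had 25.0 and 40.3 with forskolin, against 7.73 in vehicle replicate 1 and no peak in vehicle replicate 2. Dleu2, the host of miRNAs of the Mir15 family, was the 1 gene nearest to 3 regions, and none of the 3 had a peak in forskolin replicate 2 or vehicle replicate 2. Its region at the upstream 5′ end (chr14:62300923-62301277) stood at 29.5 in forskolin replicate 1, against 51.1 in vehicle replicate 1. A forskolin-only region lay 1128 bp from it (chr14:62299743-62300202), at percentiles of 40.5 and 47.5. That neighbour was not a noncoding RNA promoter region by the rule. Gm14005, which RefSeq names Morrbid and which is known for controlling the lifespan of myeloid cells, stood at 49.0 in forskolin replicate 1, against 65.2 in vehicle replicate 1.

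The list of snoRNA host genes held 22 symbols, of which 9 were found in the annotation. All 9 had a region within 1 kb, and at 8 it was called in all 4 libraries, where 31.5% of all regions were. For Gas5, Snhg1, Snhg3 and Snhg9 that region lay within 1 kb of a protein-coding start as well, so 5 hosts had noncoding RNA promoter regions. Of all protein-coding promoter regions, 58.9% were called in all 4 libraries. Among all noncoding genes that start more than 1 kb from a protein-coding start, small RNA genes included, 397 of 7120 (5.58%) had one. For lincRNA genes alone the share was 20.4%, and for processed transcript genes 6.72%. The listed hosts were not limited to genes that start so far from a protein-coding start, and no test was made between these shares. Snhg5 (chr9:88417757-88418093) had percentiles of 91.2 and 87.2 with forskolin, against 86.3 and 76.5 with vehicle, so its forskolin libraries stood above its vehicle libraries. The treatments overlapped at the next 3. Snhg12 (chr4:131864364-131864693) had 87.1 and 78.3 with forskolin, against 85.4 and 84.9 with vehicle. The region shared by Snhg7 and the antisense gene 5730588L14Rik (chr2:26495636-26496031) had 82.6 and 81.1 with forskolin, against 89.2 and 76.5 with vehicle. The region of 1110038B12Rik (chr17:35089293-35089796) had 83.7 and 64.3 with forskolin, against 83.1 and 67.3 with vehicle. Snhg4 was the host without all 4 libraries, at 43.7 in forskolin replicate 1 and no peak in forskolin replicate 2, against 49.7 and 8.71 with vehicle.

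Most miRNA genes linked to bone or to cAMP had no region at the hairpin. Of 43 annotated bone and osteoblast miRNAs, 4 had a region within 1 kb, and of 13 annotated miRNAs linked to cAMP or CREB, 5 had. These 5 were not independent, since Mir132 and Mir212 shared 1 region, as did Mir34b and Mir34c. Among all miRNA genes that start more than 1 kb from a protein-coding start, the share was lower, at 35 of 1433 (2.44%). No test was made between these shares. Mir206, a muscle miRNA that also restrains osteoblast differentiation in mice, had a forskolin-only region 920 bp upstream (chr1:20668016-20668327) at percentiles of 20.1 and 8.46. Mir30a had one 680 bp upstream (chr1:23278219-23278637) at 61.9 and 5.31. Mir206 thus rested on low-ranked peaks in both lists and Mir30a in forskolin replicate 2, and neither was forskolin-only with the top 50% of each list. The Mir199a-1 region, in an intron of Dnm2 (chr9:21301052-21301486), had 80.4 and 65.9 with forskolin, against 69.6 and 69.1 with vehicle. Mir7b had 41.6 and 22.2 with forskolin, against 33.3 and 18.4 with vehicle. The treatments overlapped at both. The region shared by Mir34b and Mir34c, which p53 induces, was called in forskolin replicate 1 alone, at percentile 20.1.

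**Figure D2:**
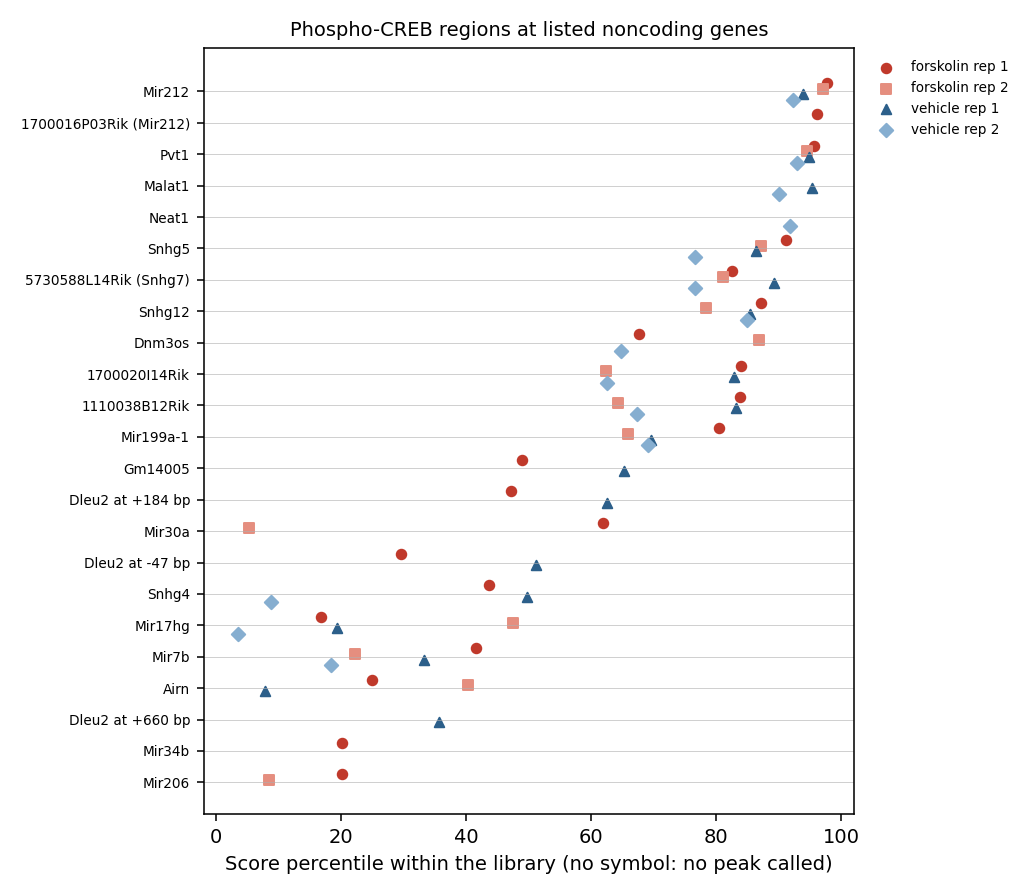
Score percentile within each library (horizontal) for the regions at noncoding genes of the 4 gene lists (vertical), with 1 symbol per library and none where no peak was called. Mir212 and Pvt1 stand above percentile 92 in all 4 libraries, Malat1 has vehicle symbols alone, and Mir206 stands at 20.1 and 8.46 with forskolin.

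Among snRNA genes, which encode the RNA cores of the spliceosomes, 15 regions were at genes named U6, 8 at U1, 7 at U2, 6 at U5, 2 at U4 and 1 at U11. The other 3 were at AC120136.2 and AC120136.3. The annotation holds 936 genes named U6 and 206 named U1, but 10 named U5, and most copies of such families in mammals are pseudogenes. Over all snRNA genes, 15 of 42 regions (35.7%) were called in all 4 libraries, near the 31.5% of all regions. By name these were 5 of 15 for U6, 3 of 8 for U1, 1 of 7 for U2, 4 of 6 for U5, 1 of 2 for U4 and 1 of 1 for U11. At U2 genes, 2 of the 7 regions had a further copy in the reference, and the part of such copies in the calls was not tested.

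Forskolin-only regions, with a peak in both forskolin and neither vehicle library, numbered 72 of 413. That is 17.4% (Wilson 95% interval 14.1 to 21.4), close to the 18.3% called among all 28335 regions, and stands between 6.60% at protein-coding promoters and 25.0% elsewhere. Regions of all 4 libraries numbered 146, or 35.4% (30.9 to 40.1), against 31.5% of all regions, 58.9% at protein-coding promoters and 15.8% elsewhere. Vehicle-only regions numbered 4, or 0.969% (0.377 to 2.46), against 0.441% of all regions, 0.493% at protein-coding promoters and 0.400% elsewhere. The remaining 191 had other patterns, among them 61 called in forskolin replicate 1 alone and 48 in all libraries but vehicle replicate 2. With the same number of top-scoring peaks taken from each list there were 17 forskolin-only and 18 vehicle-only regions. The forskolin-only count was 132 when forskolin replicate 2 was left out and 120 when vehicle replicate 1 was. The vehicle-only count was 15 without vehicle replicate 2 and 14 without forskolin replicate 1. No test of the differences between shares was made, and intervals cover counting error only.

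**Figure D3:**
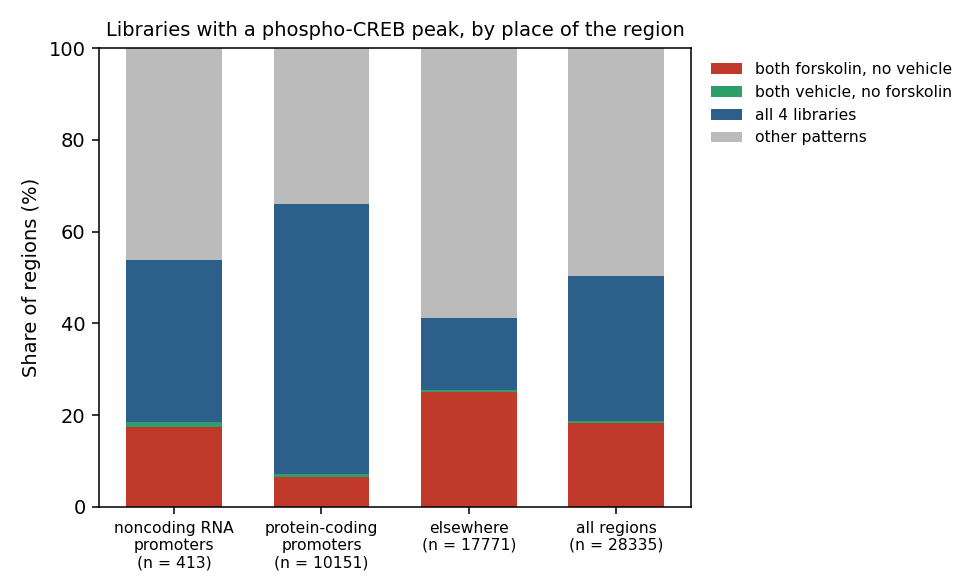
Share of regions (percent, vertical) by the libraries that had a peak, for noncoding RNA promoter regions, protein-coding promoter regions, regions elsewhere and all regions, with the number of regions under each bar. The bar of the 413 noncoding RNA promoter regions has 17.4% forskolin-only and 35.4% called in all 4 libraries, each between the shares at protein-coding promoters and elsewhere.

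Forskolin-only regions were 58 of 310 (18.7%, 14.8 to 23.4) at long and 14 of 103 (13.6%, 8.27 to 21.5) at small RNA genes. Regions of all 4 libraries were 108 of 310 (34.8%) at long and 38 of 103 (36.9%) at small RNA genes, so the intervals of both kinds overlapped. Where the region covered the annotated 5′ end, 73 of 169 (43.2%, 36.0 to 50.7) were called in all 4 libraries, against 73 of 244 (29.9%, 24.5 to 35.9) where it did not. Single peaks were 301 to 311 bp long and merged regions up to 846 bp. A region merged from more lists can thus be wider and cover a 5′ end more easily, and the part of width was not tested. At the edge of the distance rule, 7 of 23 regions up to 100 bp inside the 1 kb limit from a noncoding 5′ end were forskolin-only, and 8 of 21 up to 100 bp outside it. At the limit set by protein-coding 5′ ends these were 1 of 9 inside and 1 of 5 outside.

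The number of noncoding RNA promoter regions with a peak was 369 and 301 in forskolin replicates 1 and 2, against 244 and 171 in vehicle replicates 1 and 2. Every forskolin library was above every vehicle library. The means were 335 ± 48.1 with forskolin and 207.5 ± 51.6 with vehicle (SD, n = 2 each), a ratio of 1.61, where all regions gave 1.81. An exact two-sided permutation test over the 4 libraries gave p = 0.333, the smallest that 2 against 2 allows. With the same number of top-scoring peaks from each list the difference, forskolin minus vehicle, turned round to -20.5 regions (exact permutation p = 0.333). As a share of their list, these regions took 1.44% and 1.55% of the forskolin peaks, against 1.66% and 1.68% of the vehicle peaks (exact permutation p = 0.333). Protein-coding promoter regions took 36.3% and 42.7% of the forskolin lists, against 54.3% and 63.6% of the vehicle lists.

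Within the lists, noncoding RNA promoter regions had median percentiles of 50.7 and 47.5 with forskolin, against 57.3 and 55.1 with vehicle. They ranked below protein-coding promoter regions, at 66.7 and 62.4 with forskolin, against 66.5 and 62.6 with vehicle. Regions elsewhere were lower in each library, at 40.5 and 40.3 with forskolin, against 33.3 and 31.8 with vehicle.

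The forskolin-only regions ranked low in the lists that held them. Their percentiles lay between 0.0645 and 93.2 in forskolin replicate 1 (median 36.7) and between 1.53 and 90.7 in forskolin replicate 2 (median 29.6). In forskolin replicate 1, 47 of the 72 were below percentile 50 and 2 above 90. The noncoding RNA promoter regions of all 4 libraries had medians of 74.3 and 66.7 in the same lists. A strong peak is more likely to be called in every list, so the class rules themselves favour this order.

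Gm11537, an antisense gene near Snx11, came first among forskolin-only regions by the lower of the 2 forskolin percentiles, which were 88.9 and 90.7 (chr11:96627856-96628169, centre 104 bp upstream). It held an AP-1 site (TGAGTCA) and no CRE core. Gm17433, whose region lay 829 bp inside the transcript (chr11:119013616-119013973), had 93.2 and 88.9, nearly the same by that measure and higher by the mean, with 3 CRE cores and an AP-1 site. Gm13986, next to the thrombospondin gene Thbs1 and 1091 bp from its start (chr2:117936363-117936679), had 86.1 and 78.3. The regions at E530001K10Rik (chr2:94105401-94105725), with 86.2 and 74.2, and at AC090489.1 (chr10:127815509-127815836), with 84.8 and 73.1, held the full CREs printed above. AC090489.1 is an annotated miRNA in an intron of Ankrd52. The highest 10 also held 4833417C18Rik, given above, and 1700023C21Rik, AC138790.1, Gm17554 and 9330198N18Rik, whose percentiles lay between 68.1 and 80.5. The region of AC138790.1 lay 9862 bp from Nkx2-3, a homeobox gene.

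Among the 146 regions of all 4 libraries, 57 (39.0%) had both forskolin percentiles above both vehicle percentiles, against 44.6% of all 8930 such regions, and 5 (3.42%) had both below, against 2.51%. At protein-coding promoters these were 37.2% and 2.47%, and elsewhere 60.6% and 2.54%. The median difference of the mean percentiles, forskolin minus vehicle, was 4.30 points at noncoding RNA promoters, 4.04 at protein-coding promoters and 18.8 elsewhere. A percentile depends on what else is in its list, so these are ranks and not amounts of binding. A rule over fewer libraries is met more often, but how much more depended on the library left out. With forskolin replicate 2 left out the count with higher rank was 98, against 57. It was 104 and 88 with vehicle replicates 1 and 2 left out in turn, but 59 with forskolin replicate 1 left out. The count with lower rank was 51 without vehicle replicate 2, 42 without forskolin replicate 1 and 10 without vehicle replicate 1. Dropping forskolin replicate 2 left this count at 6, near the 5 of the full rule.

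Gm15353, an antisense gene in an intron of Mcf2l, had the largest difference in favour of forskolin. Its region (chr8:12883118-12883652) had percentiles of 89.8 and 82.9 with forskolin, against 29.0 and 13.3 with vehicle, a difference of 65.2 points. A U6 gene in an intron of Lima1, which encodes an actin-binding protein, followed (chr15:99633436-99633952), with 89.5 and 79.8 with forskolin, against 21.9 and 21.2 with vehicle. A second region 930 bp from it was forskolin-only, at 76.1 and 60.4. A SNORA17 gene in an intron of Tbck (chr3:132450616-132450958) had 97.5 and 92.7 with forskolin, against 60.6 and 26.9 with vehicle. The lincRNA gene 5730405O15Rik (chrX:12618917-12619302) had 74.9 and 44.1 with forskolin, against 4.80 and 13.3 with vehicle. Gm17439, with the full CRE printed above (chr16:21845973-21846331), had 90.4 and 83.5 with forskolin, against 43.4 and 39.0 with vehicle. The vehicle peaks stood below the middle of their lists at all of these but SNORA17, where vehicle replicate 1 was at 60.6.

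The 5 regions with lower rank under forskolin mostly differed by less. Scarna2, a small Cajal body RNA that guides modification of snRNAs (chr3:108357446-108357904), had 70.6 and 67.5 with forskolin, against 81.3 and 74.5 with vehicle. The processed transcript gene 2700023E23Rik had 67.6 and 55.9 with forskolin, against 79.0 and 76.5 with vehicle. The annotated miRNA AC123610.1 had 69.8 and 64.3 with forskolin, against 76.5 and 73.9 with vehicle. The other 2 regions had further copies in the reference. At Pisd-ps2 the percentiles were 86.2 and 67.5 with forskolin, against 88.2 and 86.5 with vehicle, and the region had 1 further copy. At 2610005L07Rik (chr8:20019957-20020520) forskolin replicate 1 stood at 0.00391, the lowest peak of its list, and forskolin replicate 2 at 86.8, against 96.0 and 90.7 with vehicle. That region had 5 further copies, counted from 90% identity over 200 bp, and the part of copies in either result was not tested.

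**Figure D4:**
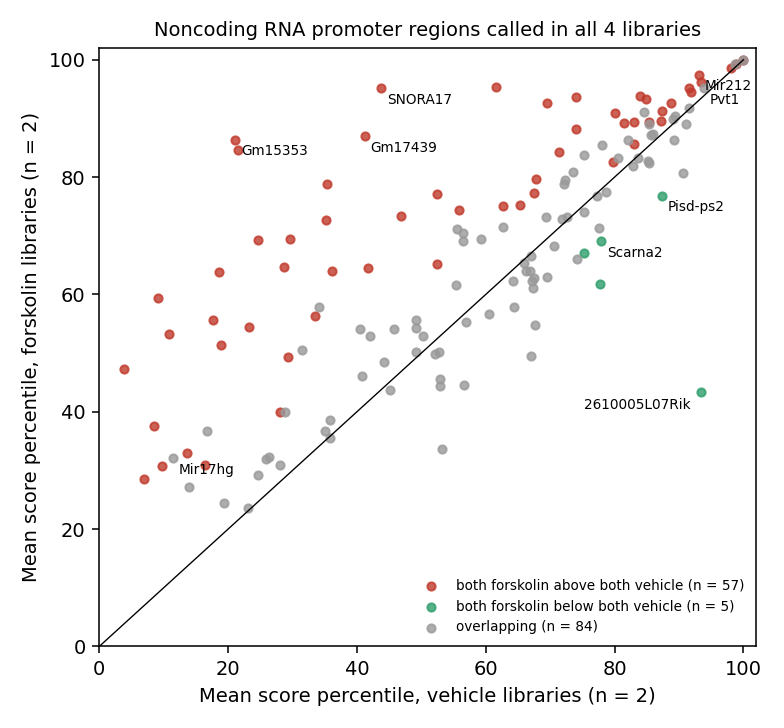
Mean score percentile of the forskolin libraries (vertical) against that of the vehicle libraries (horizontal) for the 146 noncoding RNA promoter regions called in all 4 libraries, with the line of equal rank. The 57 regions whose forskolin percentiles both exceed both vehicle percentiles include Gm15353 and Gm17439, far above the line, and Mir212, near the top of both axes.

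Full CREs were found within 100 bp of the centre, on either strand, in 22 of the 413 regions (5.33%, Wilson 95% interval 3.54 to 7.93). The share was 4.80% (4.40 to 5.23) at protein-coding promoters, 2.76% (2.53 to 3.01) elsewhere and 3.53% over all regions. In windows of the same length 2 kb to either side of the noncoding RNA promoter regions it was 0.123% (0.0216 to 0.691). The core, which every full CRE contains, was in 115 regions (27.8%, 23.7 to 32.4), against 34.4% at protein-coding promoters, 26.1% elsewhere, 29.1% over all regions and 7.35% in the windows beside. Long genes had 19 of the 22 regions with a full CRE, miRNA genes 2 and a SNORA70 gene 1. Called in all 4 libraries were 12 of the 22, against 31.5% of all regions, and forskolin-only were 6, against 18.3%, while 4 had other patterns. Among all 1000 regions with a full CRE, wherever they lay, 593 were called in all 4 libraries and 186 were forskolin-only. Of the 12, 8 had higher rank under forskolin, against 44.6% of all regions of all 4 libraries, and 0 had lower, against 2.51%. No test of these counts was made. Of the 23 sites in the 22 regions, 14 were within 200 bp of the annotated 5′ end and 18 upstream of it.

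Gm4262, which followed Pvt1 among these 22 by the lower forskolin percentile, had percentiles of 90.6 and 91.4 with forskolin, against 85.6 and 74.5 with vehicle (chr16:11008577-11008942). Among regions of all 4 libraries, a CRE core was found in 30 of the 57 with higher rank under forskolin (52.6%), in 3 of the 5 with lower rank (60%), and in 19 of the 84 whose treatments overlapped (22.6%). Over all 8930 regions of all 4 libraries these shares were 48.2% with higher rank, 24.6% with lower rank and 32.5% where the treatments overlapped. By class, it was in 26 of 72 forskolin-only regions (36.1%), 52 of 146 regions of all 4 libraries (35.6%) and 36 of 191 with other patterns (18.8%). The same shares over all 28335 regions were 38.6% for forskolin-only regions and 39.3% for regions of all 4 libraries.

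The AP-1 site, bound by dimers of Fos and Jun proteins, was in 43 regions (10.4%, 7.82 to 13.7), against 3.52% at protein-coding promoters, 19.8% elsewhere and 13.8% over all regions. The GC box (GGGCGG), bound by Sp factors, was in 97 regions (23.5%, 19.7 to 27.8), against 47.3% at protein-coding promoters, 7.75% elsewhere and 22.2% over all regions. In both motifs the noncoding RNA promoter regions stood between the other kinds of region. CCAAT, bound by NF-Y, was in 24.9%, against 26.0% of all regions and 23.5% of the windows beside. The ETS site (CCGGAAGT) was in 5 regions (1.21%), against 7.02% at protein-coding promoters and 2.81% over all, and the NRF1 site in 1 (0.242%), against 1.05% at protein-coding promoters and 0.424% over all. All motifs were searched on both strands.

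Base composition differed between the same kinds of region. Median GC content of the windows was 53.2% at noncoding RNA promoters, against 62.7% at protein-coding promoters and 48.3% elsewhere. The median ratio of observed to expected CpG was 0.523 at noncoding RNA promoters, against 0.804 at protein-coding promoters and 0.285 elsewhere. Within the noncoding RNA promoter regions it was 0.415 in forskolin-only regions and 0.693 in regions of all 4 libraries. The part of base composition in the motif shares was not tested.

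**Figure D5:**
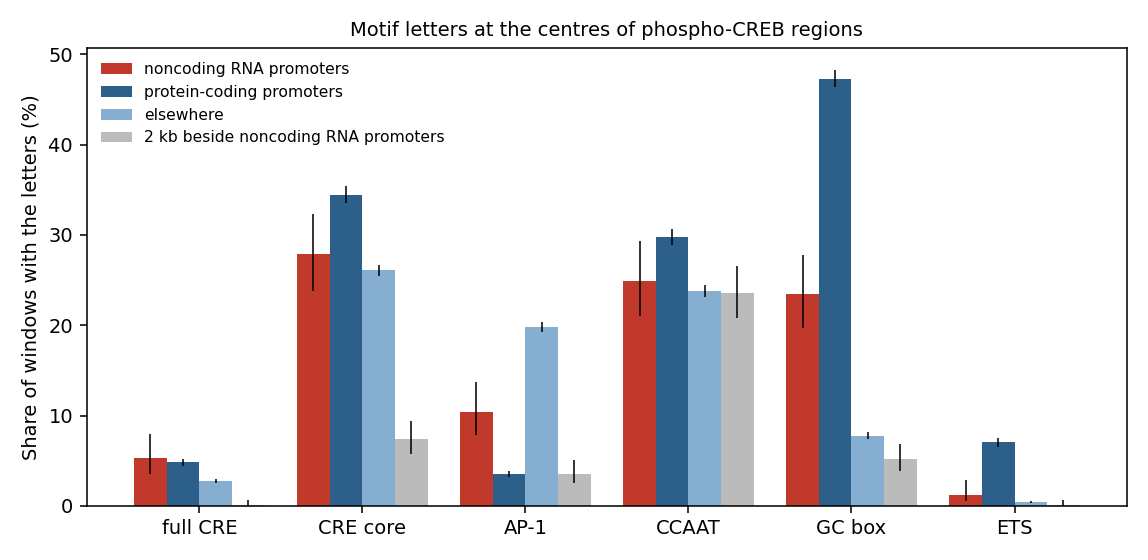
Share of windows (percent, vertical, bars with Wilson 95% intervals) that hold the letters of each motif on either strand within 100 bp of the centre, for noncoding RNA promoter regions, protein-coding promoter regions, regions elsewhere, and windows 2 kb beside the noncoding RNA promoter regions. AP-1 and GC box shares at noncoding RNA promoters, 10.4% and 23.5%, lie between those at protein-coding promoters and elsewhere.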

How the data were processed

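Phospho-CREB peaks of 4 libraries were analysed, grouped by sample title into forskolin and vehicle, which the labels call biological replicates. Bowtie, HOMER and build mm9 are named in the submitters' processing notes, without versions or thresholds. The authors deposited 1 peak list per library, called without pooling as far as the lists show, with a score per peak of unstated scale. Percentiles of the score within each list were computed from it, as the mean over peaks where a region held more than 1.

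Distances ran from region centres to the 5′ ends of all transcripts in GENCODE M1 on NCBIM37, the assembly that mm9 names. Antisense is a transcript type of its lincRNA and processed transcript genes. Copies were sought with BLAST 2.17.0 at 90% identity over 200 bp or more. The merging and class rules were tested on simulated lists. Low scores were compared with even steps below a score of 50, within a rounding of 0.05, which at least 99.93% of scores met in each list. An exact two-sided permutation test compared libraries. Alternatives changed the peak lists, the joining of peaks, the score scale and the motif window, and left out each library. Python 3.11.15, numpy 2.4.6, scipy 1.17.1, statsmodels 0.14.6 and matplotlib 3.10.9 were used.

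The regions and the 4 gene lists (snoRNA hosts, well-known long noncoding RNAs, miRNAs linked to cAMP or CREB, bone miRNAs) were chosen with earlier results of these data known. Named were up to 10 forskolin-only, 5 vehicle-only and 8 all-library regions of highest rank, up to 5 of largest rank difference each way, regions at listed genes, and 6 with a full CRE. Regions named as neighbours of these (Gm9783, the second region at U6, the forskolin-only region near Dleu2) were chosen after their values were seen.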

Additional observations from a re-analysis of the deposited data

How the results depend on the processing

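Of the values recomputed, 1 reversed and 21 counts or shares moved past their limit (1.5 times for a count), while 74 did not. The 74 include the tested differences that kept their direction, since these are judged by direction alone, and 4 of these moved by over 1.5 times. The difference in regions with a peak, forskolin minus vehicle, was 54 with the top 50% of each list and 82.5 with centres within 500 bp of a noncoding 5′ end, against 127.5. That in percent of the list was -0.332 with the top 50% and -0.109 with long genes alone, against -0.172. The number of noncoding RNA promoter regions was 217 with the top 50% of each list and 253 with equal numbers of top peaks, the forskolin-only count 37 and 17, and the count in all 4 libraries 77 and 92, since shorter lists hold fewer regions. With equal numbers, the vehicle-only count was 18 and the difference in regions with a peak was -20.5. Joining peaks within 500 bp left a vehicle-only count of 1, at Malat1. The count of lower rank was 3 with the log2 score over the list median, where the cause was not tested, and 3 without regions that have further copies, an alternative chosen after seeing the data. The CRE core share was 38.0% over whole regions, which are longer than the motif window.

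Leaving out each library in turn loosens the class rules. The number of regions then lay between 353 and 411, the forskolin-only count between 80 and 132, the vehicle-only count between 4 and 15 (without vehicle replicate 2; 14 without forskolin replicate 1), and the count in all remaining libraries between 146 and 194. Higher rank was met by 59 to 104 regions and lower rank by 6 to 51 (without vehicle replicate 2; 42 without forskolin replicate 1). The difference in regions with a peak lay between 91 and 164.5 and that in percent of the list between -0.241 and -0.117.

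The labels do not say that replicate numbers pair libraries. With the number as a replicate block the differences were again 127.5 regions and -0.172 percent of the list (exact sign-flip p = 0.5, the smallest that 2 pairs allow). The replicate 1 minus replicate 2 percentile differences of the treatments were weakly correlated with each other (r = 0.188 over 8930 regions).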
